A study of Mus musculus with 4 samples.

Results

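The blood coagulation cascade, the fibrinolytic system that dissolves clots and the complement system of innate immunity are encoded by a set of secreted proteases, inhibitors and cofactors, and 40 of these genes were followed here in mouse embryonic stem cell (ESC) cultures taken through cardiac differentiation. They were the rows whose gene name stood on a named list of coagulation and complement genes, 40 of the 24637 genes in the table, and every listed name was found. They were described as 30 hepatic-type genes, made mainly by hepatocytes or by the yolk sac's visceral endoderm, and 10 more widely expressed genes, made by endothelium, macrophages, fibroblasts and other cells. Poly(A) RNA was sequenced from 2 WT libraries (Taf4+/+) and 2 libraries labelled Taf4a-/- (Taf4-/-), from ESC lines that came from blastocysts of heterozygous parents on mouse embryonic fibroblast feeders, each genotype with 2 established lines. The null allele lacks exons 11 and 12 of Taf4a, which encodes a core subunit of the general transcription factor TFIID, in every cell of the line. All cells were kept as embryoid bodies (EBs) for 5 days and plated on gelatin for 9 further days, and no treatment other than the genotype separated the groups.

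Taf4a itself was listed at 889 and 678 normalized counts in the WT libraries and at 1722 and 1799 in the libraries labelled Taf4a-/-, a log2 fold change of 1.18 (SE 0.16, limma adjusted p = 0.00569, n = 2 per genotype). This gene-level count includes exons outside the deleted stretch and checks nothing about the deletion, but it does not go down with the label, so the second genotype is called by its label throughout. The libraries held 21732746 to 27733034 reads on genes. Over all 16926 genes tested, 17.3% were called lower and 11.3% higher in the libraries labelled Taf4a-/- (limma adjusted p under 0.05), and without a test both of these libraries lay below both WT libraries for 36.6% of genes and above them for 34.5%. These totals, 2928 lower and 1906 higher, depended on single libraries: 1222 genes were lower without WT replicate 2 and 1921 without Taf4a-/- replicate 2, and 745 were higher without WT replicate 2, 625 without Taf4a-/- replicate 1 and 624 without Taf4a-/- replicate 2. Of all calls 39.4% were higher, against 52.2% under quantile normalization, where the log2 fold changes of all genes had a median of 0.11 instead of -0.01. Of the 9 defining markers of cardiomyocytes, the labelled cell type, 9 were present in WT and 9 were called lower, with a summed level of 31486 and 28213 normalized counts against 3428 and 3252. These are bulk samples, in which fewer cells of a type and less RNA per cell cannot be told apart.

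In coagulation, tissue factor (F3) with factor VII starts a chain in which factor X, with factor V, turns prothrombin into thrombin, and thrombin turns fibrinogen into fibrin that factor XIII cross-links. A second entry, the intrinsic and contact pathway, runs through factors XII, XI, IX and VIII. Antithrombin, heparin cofactor II, protein C, protein S and tissue factor pathway inhibitor hold the cascade in check, and plasmin removes fibrin. Complement is started by recognition molecules and their proteases, converges on C3 and ends in a membrane attack complex built from C5b to C9. In the early embryo visceral endoderm makes many of the proteins that the liver makes later.

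Fibrinogen, of which the beta chain had the highest level per kilobase of all hepatic-type genes in WT, nearly disappeared from the libraries labelled Taf4a-/-. Its 3 chains are encoded side by side on chromosome 3 (build NCBIM37), Fgg at chr3:82811781-82818975, Fga at chr3:82830075-82838036 and Fgb at chr3:82846169-82853725, with gaps of 11099 and 8132 bases between them. Fgb, the beta chain, was at 1259 and 1853 normalized counts in the 2 WT libraries and at 10.8 and 14.4 in those labelled Taf4a-/-. Fgg, the gamma chain, was at 373 and 446 against 8.81 and 6.64. Fga, the alpha chain, was at 444 and 247 against 0.979 and 1.11, which is a single read in each library labelled Taf4a-/-. For all 3 chains both libraries labelled Taf4a-/- lay far below both WT libraries, beside 36.6% of all genes tested that lay below by any amount. The log2 fold change, on the log2(normalized counts + 1) scale as everywhere below, was -6.83 for Fgb (SE 0.29, limma adjusted p = 0.000494), -5.56 for Fgg (SE 0.32, limma adjusted p = 0.000705) and -7.35 for Fga (SE 0.44, limma adjusted p = 0.000824). Fgg and Fga reached the minimum for testing, a mean of 10 over the 4 libraries, through WT alone and could only be lower. From the reads alone the Fga ratio of WT to Taf4a-/- was 341 (95% exact interval 94.1 to 2822, counting error only). Per kilobase of exon the chains were unequal in WT, where Fgb made up 69.1% and 78.4% of the 3 chains, Fgg 17.2% and 15.8% and Fga 13.7% and 5.86%.

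Because the 3 fibrinogen genes are neighbours and moved together, the 250 bases before each start site are shown (RefSeq, build GRCm38.p6, written 5′ to 3′ on the strand of the gene), with matches to the motif of C/EBP factors (TTGCNNAA or its complement TTNNGCAA) in capitals. In that build the window of Fga is chr3:83025903-83026152 on the + strand, that of Fgb chr3:83049864-83050113 on the - strand and that of Fgg chr3:83007474-83007723 on the + strand.
Fga: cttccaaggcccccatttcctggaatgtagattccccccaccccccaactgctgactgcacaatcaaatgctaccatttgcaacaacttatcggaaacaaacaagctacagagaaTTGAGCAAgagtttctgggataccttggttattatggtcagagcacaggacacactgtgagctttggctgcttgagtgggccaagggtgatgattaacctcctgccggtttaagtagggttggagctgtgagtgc
Fgb: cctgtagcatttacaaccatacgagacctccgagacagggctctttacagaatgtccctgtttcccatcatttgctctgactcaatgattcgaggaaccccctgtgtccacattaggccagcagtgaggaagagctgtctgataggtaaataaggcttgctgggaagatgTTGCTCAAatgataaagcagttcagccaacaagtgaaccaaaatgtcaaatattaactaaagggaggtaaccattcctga
Fgg: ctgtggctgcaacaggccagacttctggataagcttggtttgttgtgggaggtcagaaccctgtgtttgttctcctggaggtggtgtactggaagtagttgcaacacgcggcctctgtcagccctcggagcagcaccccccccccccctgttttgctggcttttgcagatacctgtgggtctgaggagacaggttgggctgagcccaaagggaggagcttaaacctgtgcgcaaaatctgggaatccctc
The capitals in Fga are TTGAGCAA, 135 bases before the start, and in Fgb TTGCTCAA, 80 bases before it, and the Fgg window held no match.

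Windows were matched for 27 of the 40 genes, without C2, C4b, Cfb, Cfi, Kng1, Masp1, Plat, Plau, Plg, Proc, Serping1, Thbd and Vwf. The C/EBP-type motif was in 7 of these 27 (C3, C9, F11, F9, Fga, Fgb, Klkb1) and in 9.56% of all 32851 windows of this length. Among the 10 hepatic-type genes that were called lower and had a window, 3 held it. A FOXA-type motif (TGTTTAC, complement GTAAACA; 3.17% of all windows) was in F11 and Klkb1, a TATA box (TATAAA, complement TTTATA; 12.4% of all windows) in Klkb1 and Tfpi, and the longer HNF4 motif (CAAAGTCCA, complement TGGACTTTG; 0.383% of all windows) in none of the 27. All motifs were searched on both strands and no shown match overlaps another. A match describes the letters only. Hnf4a, the gene of the last of these factors, was at 1077 and 1118 normalized counts in WT against 117 and 95.1 (log2 fold change -3.36, SE 0.18, limma adjusted p = 0.000635).

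**Figure D1:**
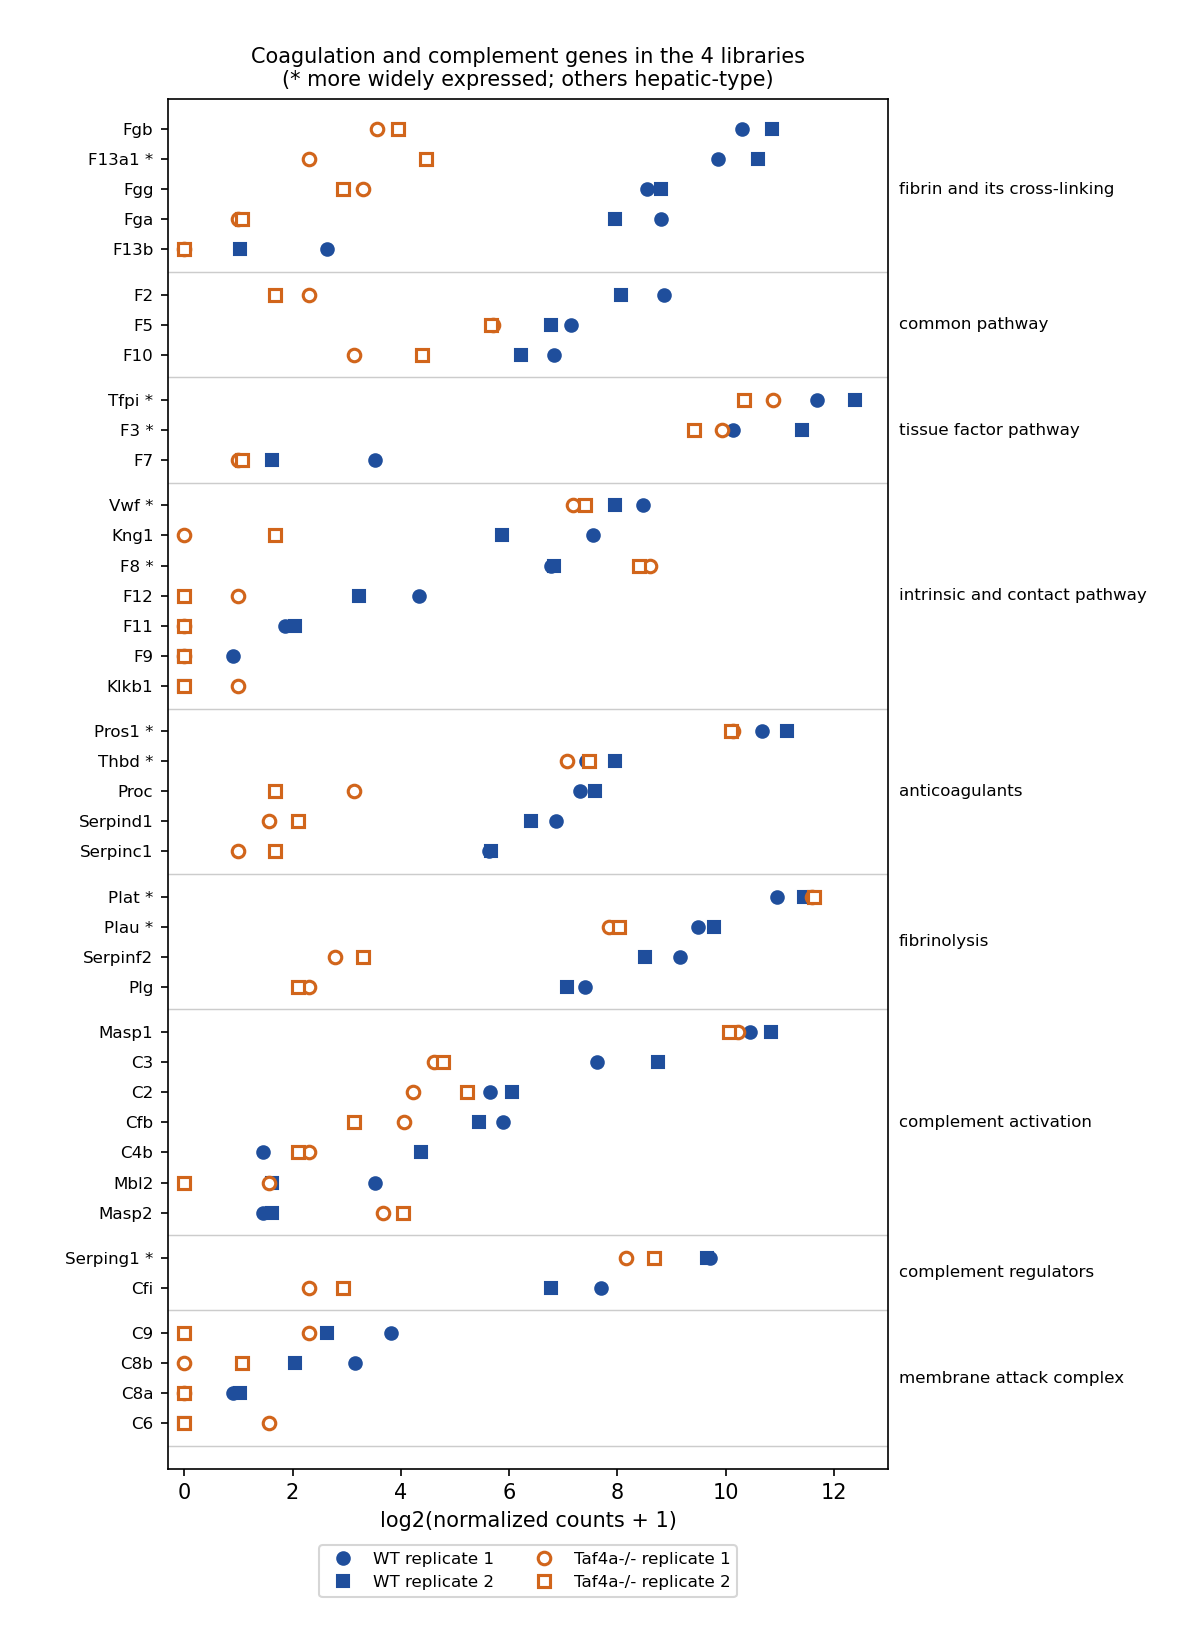
Level of each of the 40 genes in each library, as log2(normalized counts + 1), ordered by role and, within a role, by WT level. Filled blue symbols are the WT libraries, open orange symbols those labelled Taf4a-/-, circles replicate 1 and squares replicate 2. The fibrinogen chains sit between 247 and 1853 normalized counts in WT and at or under 14.4 in the libraries labelled Taf4a-/-. For F8, Plat and Masp2 both orange symbols lie to the right of both blue ones, as for 34.5% of all genes tested.

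Factor XIII, which cross-links fibrin, has a catalytic A subunit made by macrophages and platelets and a carrier B subunit made by the liver. F13a1 was at 928 and 1553 normalized counts in WT and at 3.92 and 21.0 in the libraries labelled Taf4a-/-. It fell by 6.85 on the log2 scale (SE 0.69, limma adjusted p = 0.00263), the largest fall among the 10 more widely expressed genes. The fold change was -5.77 without Taf4a-/- replicate 1 and -7.93 without Taf4a-/- replicate 2. Macrophage markers moved with it. Of 11 of these markers 11 were lower, their summed level was 12367 and 15285 in WT against 263 and 413, and C1qa, a defining complement gene of macrophages, was listed at 0 in both libraries labelled Taf4a-/- from 710 and 746. In 8 of these 11 markers the mean of the libraries labelled Taf4a-/- was under 10, so they passed the minimum for testing through WT and could only be lower, and the count is set beside the 17.3% of all genes called lower as a description. Of 8 megakaryocyte and platelet markers 2 were called lower by limma, Pf4 and Ppbp, and 5 were lower at an unadjusted p under 0.05. This list had a median log2 fold change of -2.54 and summed levels of 1450 and 1077 against 279 and 519. The part of either list in the F13a1 result was not tested. F13b had 7 reads over both WT libraries and 0 over both labelled Taf4a-/-, too few to compare.

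The proteases and cofactors of the common pathway were all lower, by unequal amounts, beside 17.3% of all genes tested called lower. F2, prothrombin, was at 462 and 266 normalized counts in WT and at 3.92 and 2.21 in the libraries labelled Taf4a-/- (log2 fold change -6.47, SE 0.44, limma adjusted p = 0.00108). It passed the minimum for testing through WT alone and could only be lower. F10, the protease that activates prothrombin, was at 113 and 73.8 against 7.83 and 19.9 (log2 fold change -2.76, SE 0.52, limma adjusted p = 0.0143). F5, its cofactor, was at 141 and 109 against 50.9 and 49.8 (log2 fold change -1.29, SE 0.28, limma adjusted p = 0.0226). The groups did not overlap for any of the 3 genes, beside 36.6% of all genes tested with both libraries labelled Taf4a-/- below both WT libraries. The WT mean exceeded the other mean 119-fold for F2, 6.74-fold for F10 and 2.49-fold for F5. The calls for F10 and F5 were not stable. The F10 fold change was -2.14 without Taf4a-/- replicate 1 and -3.39 without Taf4a-/- replicate 2. It lost its call without WT replicate 1 or 2 (limma adjusted p = 0.0687 and 0.0674; range over alternatives 0.00189 to 0.0687). F5 lost its call when any of the 4 libraries was left out or under quantile normalization (limma adjusted p from 0.0503 to 0.0754; range over alternatives 0.0202 to 0.0754).

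Among the genes of the tissue factor pathway, the initiator and its inhibitor were among the most abundant of the 40 genes, and the protease between them was nearly absent. F3, tissue factor itself, was at 1128 and 2734 normalized counts in WT and at 971 and 682 in the libraries labelled Taf4a-/-. WT replicate 2 alone was high, and the difference did not pass the test (log2 fold change -1.11, SE 0.41, limma adjusted p = 0.0897), although it did without WT replicate 1 (log2 fold change -1.75, limma adjusted p = 0.0217; against -0.47 without WT replicate 2) and without Taf4a-/- replicate 1 (limma adjusted p = 0.0432; range over alternatives 0.0217 to 0.262). Tfpi, which inhibits factor Xa and the factor VIIa and tissue factor complex, was at 3311 and 5372 against 1871 and 1302 (log2 fold change -1.43, SE 0.27, limma adjusted p = 0.0145). Of all genes tested 36.6% had both libraries labelled Taf4a-/- below both WT libraries. The Tfpi groups did not overlap, but without WT replicate 2 the call was lost (log2 fold change -1.08, limma adjusted p = 0.0712; range over alternatives 0.0023 to 0.0712). F7, the liver-made partner of tissue factor, had 14 reads over both WT libraries and 2 over both labelled Taf4a-/-, under the mean of 10 normalized counts over the 4 libraries that a gene needed to be tested.

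In the intrinsic and contact pathway the serine proteases F9, Klkb1 and F11 were close to 0 in WT already, and F12 was low. F9 had 1 read in all, Klkb1 (plasma prekallikrein) 1 read, and F11 had 6 reads over WT and 0 over both labelled Taf4a-/-. F12 was at 19.3 and 8.31 normalized counts in WT against 0.979 and 0 (30 reads against 1, ratio 27.5, 95% exact interval 4.57 to 1121, counting error only). It was under the minimum for testing, and without that minimum it was called lower (log2 fold change -3.29, SE 0.69, limma adjusted p = 0.0225), as were 11.5% of all genes then tested. A library with no read allows up to 3 reads, or 2.63 to 3.32 normalized counts depending on the library. Kng1, kininogen, the substrate from which bradykinin is cut, was the exception among the hepatic-type genes of this pathway. It was at 188 and 57.1 in WT and at 0 and 2.21 in the libraries labelled Taf4a-/-, 2 reads in all, with a log2 fold change of -5.87 (SE 0.81, limma adjusted p = 0.00583; ratio of reads 123, 95% exact interval 33.8 to 1022). Kng1 too passed the minimum for testing through WT alone and could only be lower. Leaving out any 1 library moved the Kng1 fold change, to -5.02 without WT replicate 1, -6.72 without WT replicate 2, -5.03 without Taf4a-/- replicate 1 and -6.71 without Taf4a-/- replicate 2. Its WT libraries differed from each other by 1.70 on the log2 scale, more than those of any other tested member of the 40.

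Among the 27 tested genes, 10 passed the minimum for testing through WT alone and could not be called higher. F8, the cofactor of factor IX, was the only one of the 27 called higher, beside 11.3% of all genes tested. It was at 109 and 113 normalized counts in WT and at 389 and 336 in the libraries labelled Taf4a-/- (log2 fold change 1.69, SE 0.20, limma adjusted p = 0.00389), 3.27-fold more on average, and kept its call under all 13 alternatives (adjusted p 0.00259 to 0.038). F8 is an X-linked gene (chrX:72418054-72627954, NCBIM37), made in adults mainly by endothelial cells, and none of its exonic bases overlap another annotated gene's exons. Vwf, the carrier of factor VIII in plasma and an endothelial and platelet product, was at 352 and 247 against 144 and 169 (log2 fold change -0.92, SE 0.25, limma adjusted p = 0.0395). The F8 and Vwf groups did not overlap, in opposite directions. Of all genes tested 34.5% lay above WT in both libraries, as F8 did, and 36.6% below, as Vwf did. Vwf lost its call when any library was left out, under both other scalings and with the replicate block (limma adjusted p from 0.0529 to 0.155; range over alternatives 0.0395 to 0.155). Of 10 endothelial markers, 0 were called by limma, 2 were lower at an unadjusted p under 0.05 and 1 was lower by limma's voom, with a summed level of 16816 and 15113 normalized counts in WT against 11722 and 14598. Flt1, a VEGF receptor, was at 3940 and 6508 against 4897 and 3180, and Kdr at 4538 and 3775 against 2726 and 3983. The part of these cells in the F8 and Vwf results was not tested.

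Of the 5 anticoagulants 4 were lower, beside 17.3% of all genes tested, and Thbd was not called. Serpinc1, antithrombin, was at 48.2 and 49.9 normalized counts in WT and at 0.979 and 2.21 in the libraries labelled Taf4a-/- (log2 fold change -4.31, SE 0.51, limma adjusted p = 0.00384; ratio of reads 31.4, 95% exact interval 10.5 to 155). Serpind1, heparin cofactor II, was at 116 and 84.2 against 1.96 and 3.32 (log2 fold change -4.80, SE 0.46, limma adjusted p = 0.00221). Proc, protein C, was at 157 and 190 against 7.83 and 2.21 (log2 fold change -5.03, SE 0.55, limma adjusted p = 0.00322). These 3 hepatic-type inhibitors were all more than 10-fold lower, and passed the minimum for testing through WT alone. The size of the Proc change rested on both libraries labelled Taf4a-/-, at -5.76 without replicate 1 and -4.30 without replicate 2. The partners of protein C are more widely expressed. Pros1, protein S, its cofactor, was at 1639 and 2251 against 1130 and 1090 (log2 fold change -0.79, SE 0.17, limma adjusted p = 0.022), and lost its call without either library labelled Taf4a-/- (limma adjusted p = 0.0524 and 0.0674; range over alternatives 0.0157 to 0.0674). Thbd, thrombomodulin, the endothelial receptor that lets thrombin activate protein C, was at 170 and 246 against 134 and 177. The Thbd groups overlapped and it did not pass the test (log2 fold change -0.41, SE 0.28, limma adjusted p = 0.306).

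In fibrinolysis the liver-made zymogen and inhibitor and 1 of the 2 plasminogen activators were lower, beside 17.3% of all genes tested. Plg, plasminogen, was at 169 and 134 normalized counts in WT and at 3.92 and 3.32 in the libraries labelled Taf4a-/- (log2 fold change -5.04, SE 0.39, limma adjusted p = 0.00126). Serpinf2, the plasmin inhibitor alpha2-antiplasmin, was at 568 and 364 against 5.87 and 8.85 (log2 fold change -5.79, SE 0.37, limma adjusted p = 0.000981). Plau, urokinase, was at 716 and 886 against 230 and 262 (log2 fold change -1.69, SE 0.18, limma adjusted p = 0.00302). Plg, Serpinf2 and Plau thus fell, though Plg and Serpinf2 passed the minimum for testing through WT alone and could only be lower. Plat, tissue plasminogen activator, was at 1972 and 2780 against 3078 and 3171, an upward separation that 34.5% of all genes tested shared. Both libraries labelled Taf4a-/- lay above both WT libraries, but the difference did not pass the test (log2 fold change 0.42, SE 0.18, limma adjusted p = 0.128) except without WT replicate 2 (log2 fold change 0.66, limma adjusted p = 0.0386; range over alternatives 0.0386 to 0.345).

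Of the complement activation genes C3 and Cfb were lower, and Masp1 and C2 were not called, beside 17.3% of all genes tested called lower. Masp1 encodes a protease of the lectin pathway and was at 1405 and 1832 normalized counts in WT and at 1198 and 1075 in the libraries labelled Taf4a-/- (log2 fold change -0.50, SE 0.16, limma adjusted p = 0.0661). The groups did not overlap, and the difference passed the test only without WT replicate 1 (log2 fold change -0.69, limma adjusted p = 0.0271; range over alternatives 0.0271 to 0.289). C3, on which all complement pathways converge, was at 196 and 428 against 23.5 and 26.5 (log2 fold change -3.48, SE 0.41, limma adjusted p = 0.00383). Cfb, the C3 convertase protease of the alternative pathway, was at 57.9 and 42.6 against 15.7 and 7.74 (log2 fold change -2.07, SE 0.48, limma adjusted p = 0.0253). C2, its counterpart in the classical and lectin pathways, was at 49.1 and 65.5 against 17.6 and 36.5 and did not pass the test (log2 fold change -1.13, SE 0.45, limma adjusted p = 0.111). So C3 and Cfb fell. C2 and Masp1 were below WT in both libraries, as were 36.6% of all genes tested, and were not called. Cfb lost its call without WT replicate 1, WT replicate 2 or Taf4a-/- replicate 2 (limma adjusted p from 0.0824 to 0.089; range over alternatives 0.0157 to 0.089). Cfb and C2 lie 85 bases apart on chromosome 17 (NCBIM37), and 79.5% and 40.8% of their exonic bases are shared with the annotated readthrough gene Gm20547, so reads there could be lost or split in counting.

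The remaining activation genes were under the minimum for testing. Mbl2, mannose-binding lectin, had 14 reads over WT and 2 over both labelled Taf4a-/-. C4b was at 1.75 and 19.7 normalized counts in WT against 3.92 and 3.32, with only WT replicate 2 high, and its reads cannot be told from those of its near-identical neighbour C4a with certainty. Masp2 went the other way, at 1.75 and 2.08 against 11.7 and 15.5, or 4 reads against 26, and its mean over the 4 libraries was under the minimum of 10. Without that minimum it was the only hepatic-type gene called higher (log2 fold change 2.32, SE 0.56, limma adjusted p = 0.0328), as were 6.99% of all genes then tested. Of its exonic bases 54.9% are shared with Tardbp on the opposite strand, which was at 6553 and 6041 against 7920 and 7985, and the library kit does not mark the strand.

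The 2 complement regulators fell, beside 17.3% of all genes tested called lower. Both libraries labelled Taf4a-/- lay below both WT libraries for each, as for 36.6% of all genes tested. Cfi, the protease that inactivates C3b, was at 207 and 108 normalized counts in WT and at 3.92 and 6.64 in the libraries labelled Taf4a-/- (log2 fold change -4.62, SE 0.48, limma adjusted p = 0.00275). It passed the minimum for testing through WT alone and could only be lower. Serping1, the C1 inhibitor, which also inhibits factor XIIa and kallikrein and is made by many cell types, was at 835 and 804 against 286 and 409 (log2 fold change -1.26, SE 0.20, limma adjusted p = 0.0093). Both groups were separate for each gene, and Serping1 lost its call without WT replicate 2 (limma adjusted p = 0.0636; range over alternatives 0.00256 to 0.0636). The 4 genes of the membrane attack complex among the 40 were all under the minimum for testing. C9 had 20 reads over WT and 4 over both labelled Taf4a-/-, C8b had 12 and 1, C8a had 2 and 0, and C6 had 0 and 2.

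Counted by class, 17 of the 30 hepatic-type genes and 10 of the 10 more widely expressed genes passed the minimum for testing. Of the 17, 15 were called lower, 0 higher and 2 were not called (Masp1 and C2). None was higher at an unadjusted p under 0.05 (0 of 17) or by limma's voom (0). Of the 10, 6 were called lower (F13a1, Plau, Serping1, Vwf, Pros1, Tfpi), 1 higher (F8) and 3 were not called, but without WT replicate 2 only 3 were lower and 2 higher (F8 and Plat). Against these shares stand the 17.3% called lower and 11.3% called higher among all genes tested. The median log2 fold change was -4.80 for the 17 hepatic-type genes (range -7.35 to -0.50), -1.01 for the 10 more widely expressed genes (range -6.85 to 1.69) and -0.01 over all genes tested. These counts carry a restriction. In 10 of the 17 tested hepatic-type genes the mean of the libraries labelled Taf4a-/- was under 10, so these passed through their WT level and had to be lower, and the counts and medians describe the tested genes without being evidence about the list. The other 13 hepatic-type genes had means over the 4 libraries under 10. F12, Masp2, C9, C4b, Mbl2, F7, C8b and F13b among them stood above the floor of 3 reads in at least 1 library. With the 6 hepatic-type genes that other cells also make in quantity left out (F5, C2, C3, C4b, Cfb, Masp1), 12 were called lower.

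**Figure D2:**
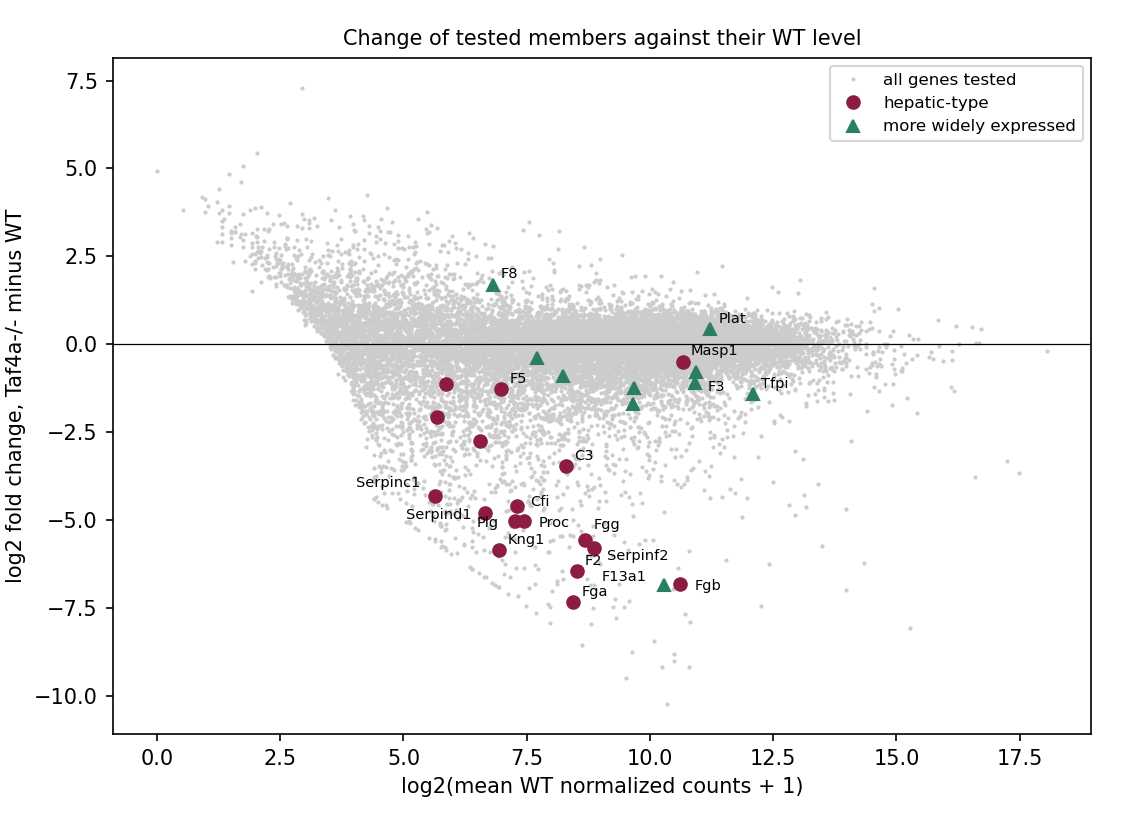
Log2 fold change (Taf4a-/- minus WT) of the 27 tested genes against their mean WT level on the log2(normalized counts + 1) axis, with all 16926 genes tested in grey, hepatic-type genes as red circles and more widely expressed genes as green triangles. The slanted left edges of the grey cloud are set by the minimum mean of 10 normalized counts. Of the 17 tested hepatic-type genes 12 fell more than 10-fold, beside 415 of the 16926 genes tested. The 415 leave out 42 genes at 0 in both libraries labelled Taf4a-/-. Of the 17, 10 passed the minimum through WT alone and had to be lower. Masp1 lies at -0.50, and F8 at 1.69 is the highest of the 27.

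All 30 hepatic-type genes summed to 6028 and 6397 normalized counts in WT and to 1389 and 1290 in the libraries labelled Taf4a-/-. Without Masp1 the sums were 4623 and 4566 against 191 and 215, so most of what was left in the libraries labelled Taf4a-/- was Masp1. The 10 more widely expressed genes summed to 11160 and 16987 against 8236 and 7620. Per kilobase of exon, where levels of different genes can be compared, the order in WT began with F3 (mean 1029 normalized counts per kilobase), Fgb (946), Plat (939), Tfpi (795) and Pros1 (476). The ranges of the first 4 over the WT libraries overlapped, and that of Pros1 lay below them. In the libraries labelled Taf4a-/- the order began with Plat (1234), F3 (441), Tfpi (290), Pros1 (272) and Masp1 (189). Fgb was at 7.65 there. F8 was at place 27 of 40 in WT (11.2) and at place 9 in the libraries labelled Taf4a-/- (36.6). In the latter it stood between Thbd (41.8) and Vwf (9.75), so at its WT level F8 would also have been at place 9. The change of place therefore reflects lower levels of other genes and does not measure the rise of F8. Of the 30 hepatic-type genes, 22 had at most 10 reads in each library labelled Taf4a-/-. Among these 22, F13b, F11, F9, Klkb1, C8b, C8a and C6 also had at most 10 reads in each WT library. The 22 are therefore not a count of genes lost with the label, and the share over all genes was not counted.

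The 2 WT libraries also differed from each other, and the hepatic-type genes did not share a direction in this. Among the 15 called lower, 5 were higher in WT replicate 2 than in WT replicate 1 (C3 by 1.13 and Fgb by 0.56 on the log2 scale, with Fgg, Proc and Serpinc1) and 10 were lower (Kng1, Cfi, Fga, F2 and others). Even adjacent genes diverged, since Fga was 0.84 lower and Fgb 0.56 higher in WT replicate 2.

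**Figure D3:**
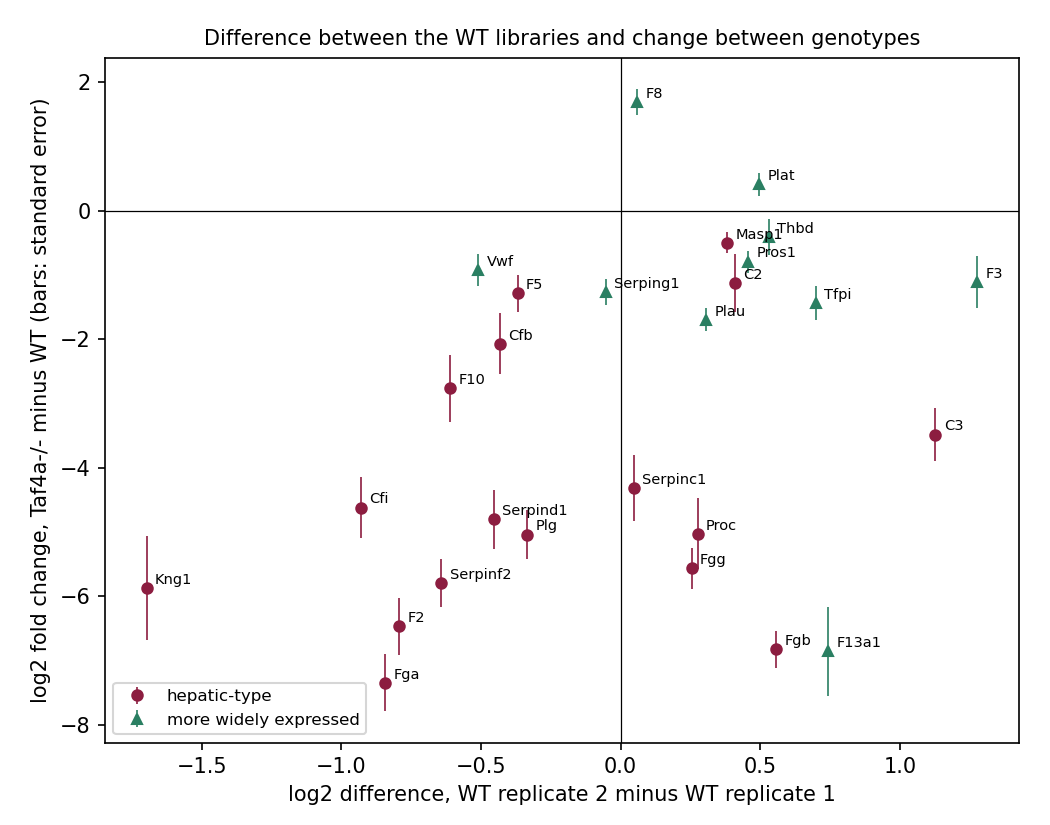
Log2 fold change between genotypes (vertical axis, bars are standard errors) against the log2 difference between WT replicate 2 and WT replicate 1 (horizontal axis) for the 27 tested genes. Red circles are hepatic-type genes and green triangles more widely expressed genes. Kng1 (1.70 lower) and F3 (1.28 higher) mark the ends of the horizontal axis, and fibrinogen genes stand on both sides of 0.

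Markers of other cell types are set beside these classes, and the lists did not all move alike, with 0 of 10 endothelial markers called. The same restriction on counts applies. Through WT alone 3 of the 12 liver and visceral endoderm markers and 4 of the 8 megakaryocyte and platelet markers passed the minimum. Of all genes tested 17.3% were called lower. Of 12 liver and visceral endoderm markers 12 were lower, with log2 fold changes around a median of -5.52 and a summed level of 96890 and 82178 normalized counts in WT against 1864 and 1173. Afp, the fetal albumin-like carrier, was at 42655 and 36728 against 152 and 140, and Alb, albumin, at 799 and 1797 against 0 and 0, which is at least 415-fold lower when both empty libraries are set to 3 reads and the means are compared. Of 10 tested liver transcription factor genes 8 were lower and 0 higher by limma, with 0 higher at an unadjusted p under 0.05 or by voom. Fibroblast and feeder markers, of which 7 of 8 were lower, summed to 429319 and 596621 against 48130 and 60341, beside the smaller differences of Plau, Serping1, Pros1, Tfpi and F3. The part of each list in the results for the coagulation and complement genes was not tested.

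**Figure D4:**
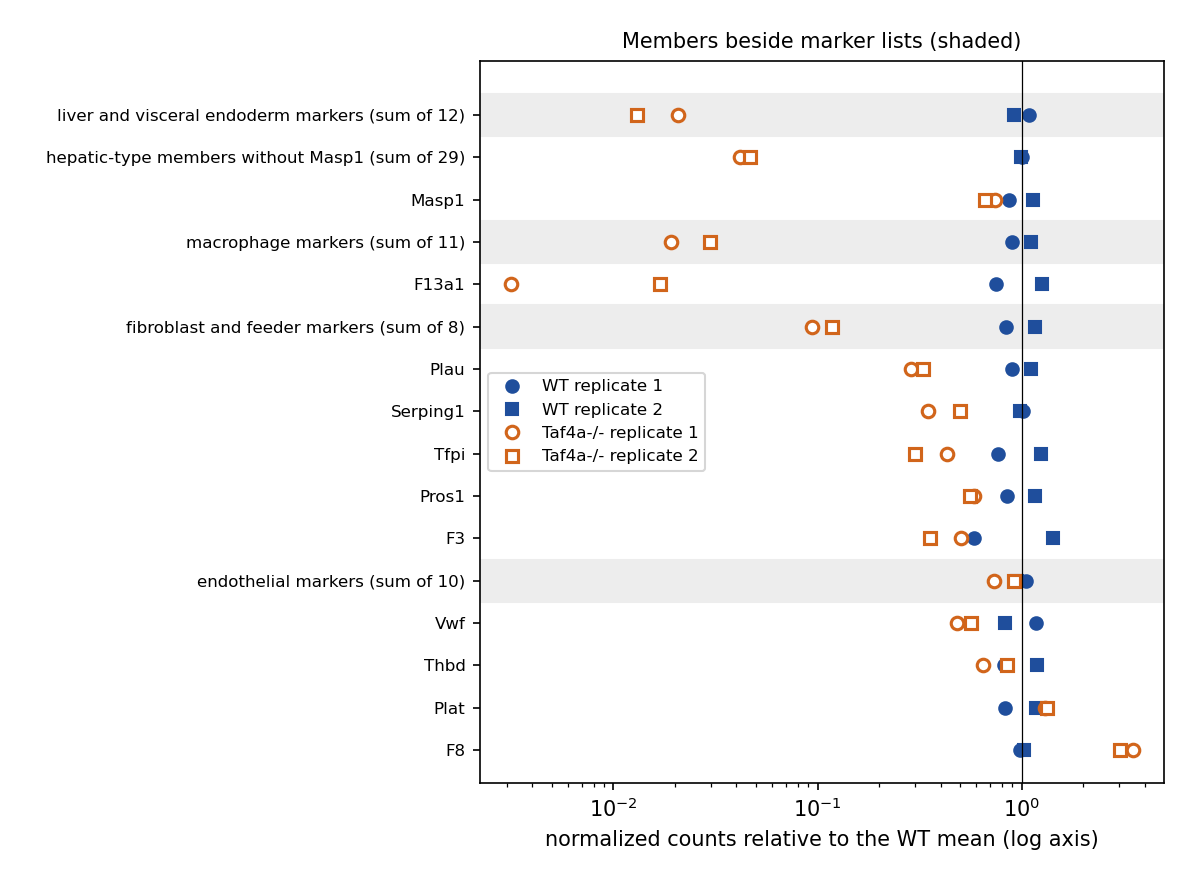
Normalized counts relative to the mean of the WT libraries (log axis) for summed marker lists (shaded rows), the summed hepatic-type genes without Masp1 and single genes, by library with symbols as in the plot of all 40 genes. The hepatic-type sum and the liver and visceral endoderm markers lie far to the left for both libraries labelled Taf4a-/-, the endothelial markers lie near 1, and F8 lies to the right.

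The same pathways hold further genes that act as receptors, carriers, processing enzymes or surface regulators. Of 32 other coagulation and fibrinolysis genes 27 were tested, 11 were lower and 0 higher by limma, with 0 higher also at an unadjusted p under 0.05 or by voom (median log2 fold change -0.86), beside 17.3% lower and 11.3% higher among all genes tested. Of the 27, 5 passed the minimum through WT alone and could only be lower, and 6 instead of 11 were lower without WT replicate 2 or without Taf4a-/- replicate 1. The 4 most abundant of the called genes were Anxa2, Lman1, Mcfd2 and Tgm2. Anxa2, which assembles plasminogen and its activator at the cell surface, was at 9445 and 15143 normalized counts in WT against 5855 and 5538 (log2 fold change -1.07, SE 0.23, limma adjusted p = 0.0198). Lman1 and Mcfd2, which together carry factors V and VIII out of the endoplasmic reticulum, were lower by less, with log2 fold changes of -0.68 (SE 0.19, limma adjusted p = 0.0404) and -0.79 (SE 0.19, limma adjusted p = 0.0272). Tgm2, a transglutaminase related to F13a1, was at 1888 and 3123 against 392 and 384 (log2 fold change -2.64, SE 0.24, limma adjusted p = 0.00194). Tfpi2 was at 11.4 and 12.5 against 0 and 0, at least 3.82-fold lower by the same comparison of means at 3 reads a library, and Hrg had 0 reads over WT and 4 over both labelled Taf4a-/-.

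Values were found for 31 other complement genes, of which 25 were tested, 16 were lower and 0 higher by limma, again with 0 higher at an unadjusted p under 0.05 or by voom (median log2 fold change -1.76). The same shares of all genes apply, 8 of the 25 passed the minimum through WT alone and could only be lower, and 9 instead of 16 were lower without WT replicate 2. Colec12, a scavenger receptor of the collectin family, was at 4382 and 5130 normalized counts in WT against 2649 and 3235 (log2 fold change -0.70, SE 0.15, limma adjusted p = 0.0209). Cd55, a surface inhibitor of the C3 convertases, was at 1583 and 2220 against 720 and 476 (log2 fold change -1.68, SE 0.25, limma adjusted p = 0.00719). C3ar1, the receptor of the C3a fragment on myeloid cells, was at 1365 and 1465 against 6.85 and 15.5 (log2 fold change -6.96, SE 0.38, limma adjusted p = 0.000635). Vtn, vitronectin, a liver-made inhibitor of the membrane attack complex, was at 317 and 1207 against 0.979 and 6.64 (log2 fold change -7.32, SE 0.84, limma adjusted p = 0.00355). All 4 were below WT in both libraries, as were 36.6% of all genes tested, with Colec12 the least and C3ar1 and Vtn the most. The order of these last genes is not settled. Vtn differed between libraries of a genotype by 1.92 (WT) and 1.95 (Taf4a-/-) on the log2 scale. Hc, which encodes C5, had 12 reads over WT and 0 over both labelled Taf4a-/- (at least 1.89-fold lower at the same floor), and Cfd and C1rb had a single read each over all libraries.

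**Figure D5:**
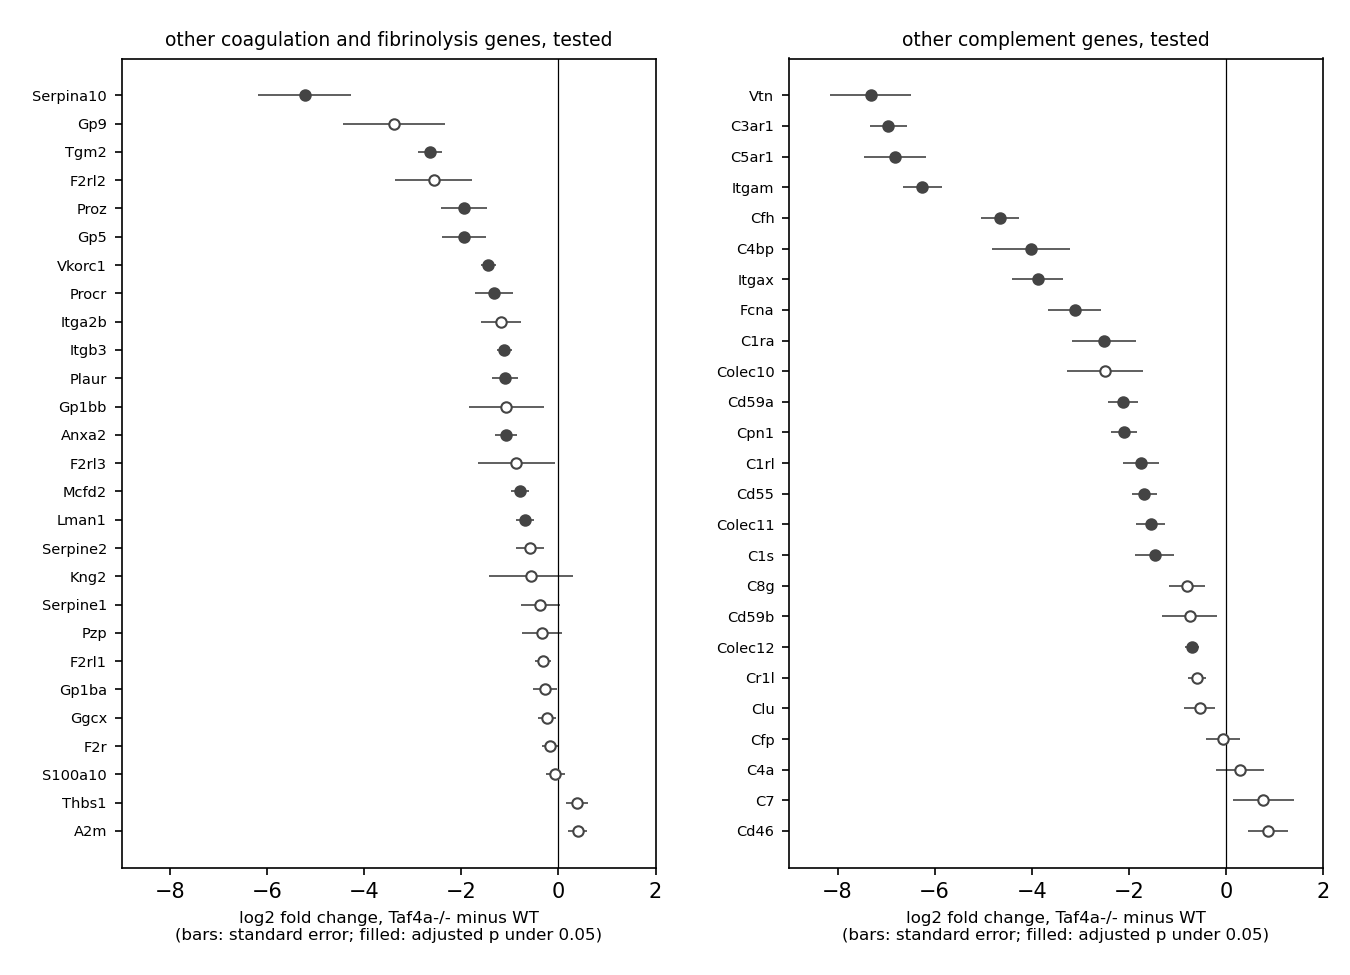
Log2 fold change (Taf4a-/- minus WT, bars are standard errors) of the 27 tested other coagulation and fibrinolysis genes on the left and the 25 tested other complement genes on the right. Filled points have an adjusted p under 0.05, 11 on the left and 16 on the right, and all of them lie below 0.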

How the data were processed

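Poly(A) RNA of 2 WT and 2 Taf4a-/- libraries was sequenced by the authors with an unstranded kit. According to the submitters' processing notes CASAVA 1.8, TopHat 1.3.3, HTSeq 0.5.3p1 and DESeq were used with build mm9 (NCBIM37), and the deposited values are counts per gene divided by DESeq size factors (normalized counts), written with decimal commas. In each library 100% of the deposited values were whole multiples (tolerance 0.1 reads) of the value of 1 read, which gave the reads on genes per library, 21732746 to 27733034, and so the counting intervals and floors (3 reads). All numeric columns of the table were mapped to a sample (0 were not).

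The test was limma 3.58.1 (R 4.3.3) with a mean-variance trend, on log2(normalized counts + 1), over genes whose mean in the 4 libraries reached 10, with Benjamini-Hochberg adjustment over all 16926 genes tested and calls at an adjusted p under 0.05. Tests with count models that had been planned as alternatives were not run. Instead voom of limma was applied to the recovered reads, a choice made after seeing the data. The procedure was tested on simulated data. Fold changes on this scale understate those of genes with few reads. The 2 lines per genotype are separate ESC lines by the study's methods, but the labels give only a replicate number, so p-values measure the spread between these libraries.

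The genes, their classes and all marker and pathway lists were chosen with earlier results of these data known. Values are given for every gene with a mean of at least 10 in either genotype and read totals for the rest. Of the other lists, the 4 called genes with the highest mean (the 2 highest where none was called) and genes listed at 0 in a genotype could be named. Some items are not reported here. Alternatives were other pseudocounts, minimum means, scalings and thresholds, a replicate block and leaving out each library. Gene lengths and overlaps came from the GENCODE annotation of NCBIM37, promoters from RefSeq (GRCm38.p6). Figures were drawn with matplotlib 3.10.9.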

Additional observations from a re-analysis of the deposited data

How the results depend on the processing

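There were 13 alternatives, or 12 for Serpinc1, C2 and Cfb, whose means were under the minimum of 50. No tested gene of the 40 changed direction under any of them. Those that lost or gained a call are given with their values in the report. A pseudocount of 10 gave smaller fold changes for genes near 0 in the libraries labelled Taf4a-/-, such as -4.95 for Fga and -2.35 for Serpinc1. Between 12 and 16 hepatic-type genes were called lower over all alternatives, with the lowest count, 12, at an adjusted p under 0.01, without WT replicate 2 or without the 6 genes that other cells also make. Without a minimum level F12 was also called lower and 1 hepatic-type gene, Masp2, was called higher. At an adjusted p under 0.01 the counts were 3 more widely expressed genes lower, 3 other coagulation and fibrinolysis genes and 9 other complement genes lower, and over all genes 1119 lower and 331 higher. With a minimum mean of 50 normalized counts, which tests fewer genes, 10 other complement genes were lower. Leaving out 1 library at a time gave 12 to 14 hepatic-type genes lower, 3 to 6 more widely expressed genes lower and 1 to 2 higher, 6 to 11 other coagulation and fibrinolysis genes lower, 9 to 15 other complement genes lower, and 1222 to 3038 genes lower and 624 to 2476 higher over all genes. The lowest counts of lower genes came without WT replicate 2 (also without Taf4a-/- replicate 1 for the other coagulation and fibrinolysis genes), where 1 more widely expressed gene beyond F8, Plat, was called higher, and the cause was not tested. In these fits the lone library of a genotype is assumed to vary like the other group.

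Replicate numbers shared between the genotypes did not pair the libraries by any label, and with 2 pairs the correlation of same-numbered deviations across genes was 0.0118. With the replicate block 2657 genes were lower and 1536 higher, with 15 hepatic-type and 5 more widely expressed genes lower (Vwf lost its call), 11 other coagulation and fibrinolysis and 17 other complement genes lower. The edgeR and DESeq2 tests listed as alternatives were not run. At this depth a gene with under about 3 reads a library in both genotypes cannot be compared between them.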
